A study of Mus musculus with 33 samples.

Results

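The genes described here mark flank mesoderm or precursors of blood and endothelium and are 9 in number: the receptor genes Kdr, Flt1 and Pdgfra, the mesoderm transcription factor genes Hand1 and Hand2, and the blood and endothelial transcription factor genes Etv2, Tal1, Lmo2 and Gata2. They were chosen by name, and all 9 were found among the 21844 genes to which the deposited transcript counts were summed. The series holds 33 libraries from day 4 embryoid bodies, the aggregates in which mouse embryonic stem cells differentiate, grown without serum. The aggregates were dispersed on day 2 and kept for 2 days with SB-431542, an inhibitor of the activin and Nodal type I receptors (SB), with no addition (serum-free control, SFM), or with activin A at 3 ng/mL (AA3), 15 ng/mL (AA15) or 100 ng/mL (AA100). The dose set, made by amplification from designed heptamer primers (DP-seq), has 1 SB, 2 SFM, 1 AA3, 2 AA15 and 1 AA100 libraries of 13053122 to 15707808 counts. A method set has AA100 and AA3 RNA in 3 methods: standard RNA-seq from 20 ng of mRNA (1 AA100 and 2 AA3 libraries), DP-seq from 50 pg (2 and 1) and SMART-seq, a full-length cDNA method, from 50 pg (2 and 2), with 10389043 to 30609013 counts a library. A further 12 DP-seq libraries dilute AA3 mRNA between 1 pg and 10 ng, and the remaining 4 are a paired-end library and libraries of 3 primer sets. The labels name neither the stem cell line nor the number of cultures.

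During gastrulation, cells that leave the primitive streak towards the flank and the extraembryonic membranes switch on the VEGF receptor gene Kdr, also called Flk1, and some of them later form endothelium and blood. Etv2, an ETS factor, acts at the top of this vascular and blood programme, with Tal1, its partner Lmo2 and Gata2 acting with or after it. Hand1 and Hand2, basic helix-loop-helix factors, mark extraembryonic, lateral and heart mesoderm. Nodal and activin signalling, which both ligands pass through the same receptors, is needed to form mesoderm and endoderm, and the level of the signal affects which of them forms.

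The windows of 250 bases before the start of Kdr, Flt1 and Etv2 are shown because the results turn on these genes: Kdr and Flt1, both VEGF receptor genes, stood higher in AA100 than in AA3 in one set of libraries and differed in direction in the other, and the direction of Etv2 in TMM-scaled values differed between methods. They are RefSeq sequences of build GRCm38.p6, printed 5′ to 3′ on the gene's strand; Kdr lies at chr5:75978456-75978705, Flt1 at chr5:147726012-147726261 and Etv2 at chr7:30635853-30636102, all on the minus strand. Capitals mark matches to a GATA site (AGATAA), a HAND E-box (CATCTG), a SMAD box (CAGAC), a FOXH1 site (AATCCAC), a T-box site (AGGTGTG) or a TATA box (TATAAA), each searched on both strands.
Kdr: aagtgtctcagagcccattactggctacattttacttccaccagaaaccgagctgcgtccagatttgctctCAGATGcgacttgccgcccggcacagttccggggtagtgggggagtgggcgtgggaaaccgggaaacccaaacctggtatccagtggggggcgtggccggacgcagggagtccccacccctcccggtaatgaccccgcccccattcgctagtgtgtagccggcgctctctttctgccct
Flt1: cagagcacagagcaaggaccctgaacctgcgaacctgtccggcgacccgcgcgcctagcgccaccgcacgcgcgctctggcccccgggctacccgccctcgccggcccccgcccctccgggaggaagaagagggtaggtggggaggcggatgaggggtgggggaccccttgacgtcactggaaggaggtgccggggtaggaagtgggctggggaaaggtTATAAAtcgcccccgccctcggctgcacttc
Etv2: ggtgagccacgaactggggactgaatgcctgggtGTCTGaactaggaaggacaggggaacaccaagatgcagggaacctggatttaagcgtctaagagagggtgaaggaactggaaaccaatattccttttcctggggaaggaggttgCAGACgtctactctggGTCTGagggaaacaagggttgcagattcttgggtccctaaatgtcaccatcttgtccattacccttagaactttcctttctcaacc
The Kdr window held 1 match, a HAND E-box on the other strand, which starts 179 bases before the start; 14.4% of 32851 promoter windows of this length held that motif. It was also the window's only match to the general E-box CANNTG, of which CATCTG is a case and which 66.2% of windows held. The Flt1 window held 1 TATA box (12.4% of windows), at 31 bases before the start, and the Etv2 window 3 SMAD boxes (42.2% of windows hold at least 1). G and C made up 61.6% of the Kdr window, 70.4% of the Flt1 window and 50.0% of the Etv2 window, against a median of 52.4% over all windows. A match describes the letters of the window and is no evidence of binding. Promoter windows were found for 7 of the 9 genes; Hand1 and Lmo2 had no entry.

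Before the results, 3 features of the libraries need stating. The labels call each pair of libraries technical replicates, apart from SFM, and do not state that the control libraries had a culture each, so p-values measure a spread that may be technical. The SFM libraries stand apart from each other: SFM replicate 2, labelled as carrying added yeast transcripts, differed from replicate 1 with an SD of 1.5 for the log2 ratio over 10920 genes, against 0.331 over 10991 genes for the AA15 pair. Results that rest on SFM are therefore given with and without replicate 2. Products of the cells that these precursors form were low in the dose set, in CPM (counts scaled to the library size, with TMM factors). There the summed level of 8 primitive blood products, embryonic globins included, lay between 0.0616 and 0.443 CPM, with Ptprc at 0 in all 7 libraries. That of 9 endothelial products lay between 2.60 and 7.46 CPM, and Ecscr held 6.20 CPM of it in AA100. In standard RNA-seq Itga2b alone had 5.84 CPM in AA100, and Vwf 11.5 CPM on average in AA3. In bulk RNA, a change in the number of cells of a type and a change in RNA per cell cannot be told apart.

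The 3 receptor genes come first. Kdr, the main signalling receptor for VEGF-A, stood in the dose set at 0.627 CPM in SB, 6.15 and 9.93 CPM in the SFM libraries, 11.4 CPM in AA3, 18.2 and 18.3 CPM in AA15, and 96.8 CPM in AA100. Every activin library thus lay above both SFM libraries and SB below them, and among the activin groups the step between AA15 and AA100 was the widest. Pooled over libraries, the AA100 level was 12.8 times that of SFM (95% exact interval 11 to 14.8, counting error only) and the SB level 0.0827 times (0.0391 to 0.155).

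Flt1, the VEGF receptor with high affinity for its ligands and weak kinase activity, stood at 2.51 CPM in SB, 7.09 and 4.72 CPM in SFM, 15.5 CPM in AA3, 32.8 and 32.3 CPM in AA15, and 84.7 CPM in AA100. The order of the groups matched that of Kdr, with no overlap between neighbouring groups. The AA100 level was 13.7 times that of SFM (11.6 to 16.1). Pdgfra, the receptor of early mesoderm that binds PDGF-A, had 0 counts in all 7 libraries, an upper limit of 3 counts in each.

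**Figure D1:**
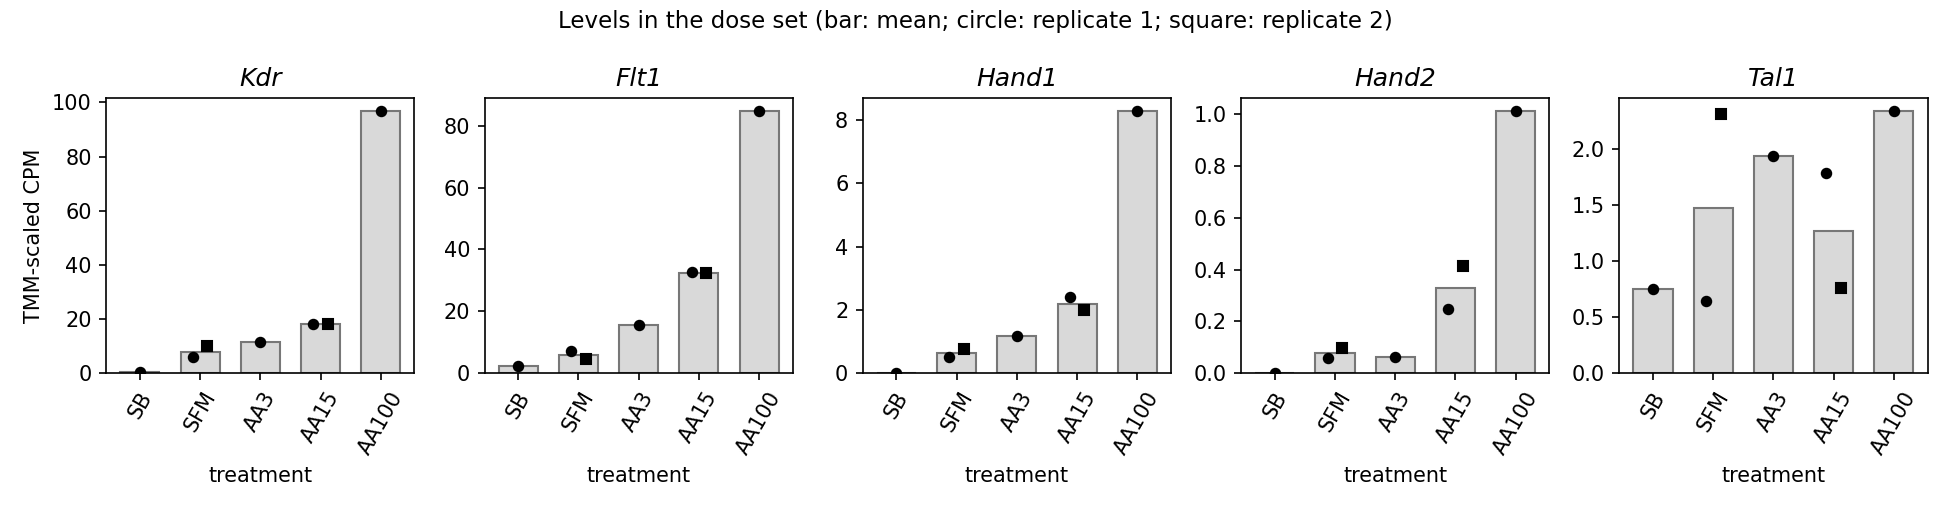
TMM-scaled CPM (vertical axis, from 0, own scale in each panel) of 5 genes in the 7 dose-set libraries, by treatment, with bars at group means and 1 point for each library (circle for replicate 1, square for replicate 2). Kdr, Flt1 and Hand1 were lowest in SB and highest in AA100 (96.8, 84.7 and 8.28 CPM), and the Tal1 libraries of SFM and AA15 spread over most of that gene's range.

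Of the mesoderm factors, Hand1 had 0 counts in SB, 9 and 8 in SFM, 19 in AA3, 39 and 29 in AA15, and 131 in AA100, which is 0.527 and 0.771 CPM in SFM and 8.28 CPM in AA100. The groups did not overlap, with the same limit as for Flt1. The SB level was at least 3.30-fold lower than that of SFM, with 3 counts taken as the floor, and the AA100 level was 13.4 times that of SFM (8.04 to 23.7). Hand2 had 0 counts in SB, 1 in each SFM library, 1 in AA3, 4 and 6 in AA15, and 16 in AA100. Its AA100 to SFM ratio of 13.9 rested on 2 SFM counts, and its 95% interval ran between 3.26 and 124.

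The blood and endothelial factors showed no such order. Tal1 had 12 counts in SB, 11 and 24 in SFM, 31 in AA3, 29 and 11 in AA15, and 37 in AA100. Its 2 SFM libraries, at 0.645 and 2.31 CPM, spanned nearly the whole range of the dose set, up to the 2.34 CPM of AA100. Etv2 had 3 counts in SB, 1 and 0 in SFM, 0 in AA3, 5 and 3 in AA15, and 6 in AA100, too few for a comparison. Lmo2, which encodes a bridging protein of the Tal1 complex, and Gata2, which encodes a zinc finger factor of blood precursors, had 0 counts in all 7 libraries.

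Across SFM, AA3, AA15 and AA100, coded as equal steps, edgeR's quasi-likelihood test with Benjamini-Hochberg adjustment called Flt1 alone among the 5 members that passed the count filter. Its slope was 1.25 ± 0.13 log2 units a step (SE; adjusted p = 0.0287, 6 libraries), and its level was higher in each library of a step than in each of the step before. Of all 12102 genes tested, 0.397% were called, 0.149% in the direction of a rise and 0.248% in that of a fall. Hand1 had a slope of 1.16 ± 0.17 (adjusted p = 0.0539), Kdr 1.07 ± 0.20 (adjusted p = 0.0917), Hand2 1.32 ± 0.32 (adjusted p = 0.166) and Tal1 0.13 ± 0.26 (adjusted p = 0.814) in the same edgeR test. The median of the 5 slopes was 1.16, against 0.00 over all genes. Without SFM replicate 2, edgeR called Flt1 (1.18 ± 0.10, adjusted p = 1.0e-05), Hand1 (1.33 ± 0.17, 0.00037), Kdr (1.27 ± 0.16, 0.00076) and Hand2 (1.54 ± 0.42, 0.0476), with 5.79% of 11970 genes called. Without SFM replicate 1, or without either AA15 library, no member was called in edgeR's test. For the fits without an AA15 library no share of all genes is given here. Whether the loss in those fits is particular to the members therefore cannot be said. Hardly any gene was called without SFM replicate 1, so the loss in that fit is not particular to the members.

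Against SFM group by group, edgeR called 0% of 12180 genes for SB, AA3, AA15 and AA100, so no member was called either; at an unadjusted p under 0.05 there were 179, 197, 702 and 541 genes, among them 2, 0, 2 and 4 of the 5 members tested. DESeq2's Wald test called 17, 14, 168 and 106 genes. These 4 comparisons share the SFM libraries. The log2 changes of AA100 over SFM were 3.84 ± 0.58 for Flt1, 3.68 ± 0.64 for Hand1, 3.59 ± 0.60 for Kdr, 3.63 ± 1.13 for Hand2 and 0.69 ± 1.03 for Tal1 (edgeR, SE, adjusted p 0.817 for the first 3 and 0.941 for the others). Those of SB over SFM were −3.66 ± 0.77 for Kdr and −1.24 ± 0.64 for Flt1 (edgeR, adjusted p = 0.963 each). DESeq2's Wald test called Flt1 in AA15 (adjusted p = 0.0409) and both Flt1 (0.00309) and Kdr (0.0109) in AA100. Without SFM replicate 2, edgeR called Kdr (−3.29 ± 0.48, adjusted p = 8.4e-08), Flt1 (−1.51 ± 0.38, 0.0062) and Hand1 (0.0388) lower in SB, and all 5 members higher in AA100, Tal1 with 1.84 ± 0.66 (0.0447). Of all 12076 genes, 4.12% were called for SB and 12.9% for AA100 in that fit. There the residual spread comes from the AA15 technical pair alone. Without SFM replicate 1 instead, Tal1 was at 0.01 ± 0.58 in AA100 (edgeR, adjusted p = 0.989), so the sample taken as the control decided its value.

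The same contrast of high against low activin could be followed in 4 sets of libraries, and Kdr did not keep its direction. In the dose set Kdr had 1531 counts in AA100 and 182 in AA3, or 96.8 against 11.4 CPM. In standard RNA-seq it had 5.46 CPM in AA100, against 16.5 and 17.1 CPM in the AA3 libraries (56 against 178 and 178 counts). In DP-seq from 50 pg it had 3.30 and 3.73 CPM in AA100, against 15.8 CPM in AA3 (37 and 51 against 168 counts). In SMART-seq it had 0 and 1 counts in AA100, against 34 and 33 counts in AA3. AA100 was thus above AA3 in the dose set and below it in each method of the method set. No libraries overlapped, but the dose set has 1 library of each dose, so overlap was not possible there. The share of all genes without overlap was not counted.

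The edgeR log2 change of Kdr, AA100 over AA3, was −1.62 ± 0.18 in standard RNA-seq (adjusted p = 4.5e-18), −2.17 ± 0.85 in DP-seq (adjusted p = 0.191) and −5.71 ± 1.60 in SMART-seq (adjusted p = 0.158), and 3.09 ± 0.76 in the dose set (adjusted p = 1.00, a comparison added after the data were seen, with 0% of 12180 genes called, 128 at an unadjusted p under 0.05 and 0 called by DESeq2). The pooled ratio of AA100 to AA3 was 0.326 (95% exact interval 0.241 to 0.432) in standard RNA-seq, 0.223 (0.171 to 0.291) in DP-seq and 0.0156 (0.00039 to 0.0902) in SMART-seq, against 8.50 (7.28 to 9.96) in the dose set. The call in standard RNA-seq has to be read against 62.3% of 12605 genes called there, 31.1% in each direction, since its 2 AA3 libraries are technical replicates of low spread and AA100 has 1 library. In a joint fit of the 10 method-set libraries the adjusted p of Kdr was 0.908 in standard RNA-seq, 0.256 in DP-seq and 0.0286 in SMART-seq. That fit called 1.91%, 2.35% and 4.07% of 14072 genes in these methods.

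**Figure D2:**
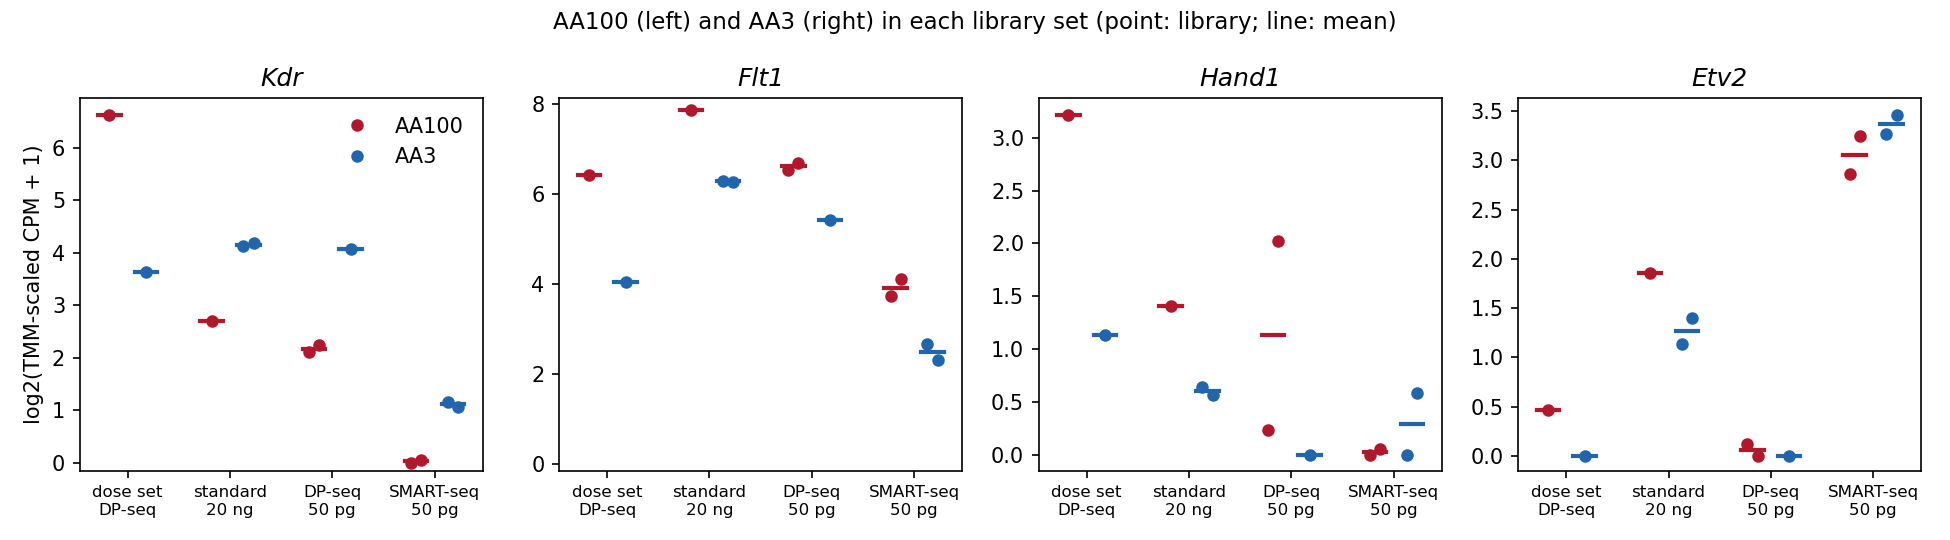
log2(TMM-scaled CPM + 1) (vertical axis, own scale in each panel) of Kdr, Flt1, Hand1 and Etv2 in AA100 (red, left) and AA3 (blue, right) libraries of the dose set and the 3 methods, with a point for each library and a line at each mean. Kdr lies higher in AA100 only in the dose set (96.8 against 11.4 CPM), Flt1 lies higher in AA100 in all 4 sets, and Etv2 reaches its highest levels in SMART-seq.

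Only DP-seq was run on both sets, and a test of the difference between its AA100 over AA3 changes was added after the data were seen. For Kdr the change in DP-seq from 50 pg minus that in the dose set was −5.28 ± 0.91 (edgeR, unadjusted p = 0.00072, adjusted p = 1.00, with 0% of 13035 genes called and 467 at an unadjusted p under 0.05). DESeq2's Wald test gave −5.29 ± 1.14 (adjusted p = 0.00983) and called 6 genes, Kdr among them. The labels give no mRNA input for the dose set and do not say whether the RNA of both sets came from the same cultures, so input and culture cannot be told apart.

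Between AA100 and AA3, the summed level of paraxial mesoderm markers differed in the direction of Kdr in each set. The summed level of the 8 listed genes was 28.6 CPM in AA100 and 7.76 CPM in AA3 in the dose set. In the method set it was 16.8 CPM in AA100 against 93.1 and 92.7 CPM in AA3 (standard RNA-seq), 13.7 and 11.6 against 124 CPM (DP-seq), and 4.22 and 9.30 against 21.8 and 24.6 CPM (SMART-seq), with Msgn1 at 0 in every dose-set and DP-seq library and no gene of the list at 0 in standard RNA-seq. Foxc1 and Foxc2 made up most of the sum in the dose-set AA100 library, and Foxc2 alone had 81.8 of the 124 CPM in DP-seq AA3. Single genes did not all share the direction of the sum. In the dose set the edgeR log2 change was above 0 for Foxc1, Foxc2, Dll1 and Tcf15, but −2.35 ± 0.87 for Pax3. Tbx6, Msgn1 and Meox1 were not tested there. In DP-seq from 50 pg it was below 0 for Foxc1, Foxc2, Dll1 and Tbx6, but 0.84 ± 1.57 for Tcf15. Across the other dose-set groups the sum did not follow Kdr: it was 24.9 CPM in SB, 19.5 and 40.9 CPM in SFM, and 10.3 and 11.7 CPM in AA15. The part of paraxial mesoderm in the Kdr result was not tested.

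Flt1 stood higher in AA100 than in AA3 in every set. It had 84.7 CPM in AA100 and 15.5 CPM in AA3 in the dose set, and 231 CPM in AA100 against 77.5 and 76.2 CPM in AA3 in standard RNA-seq. In DP-seq from 50 pg it had 92.3 and 102 CPM in AA100 against 41.9 CPM in AA3, and in SMART-seq 12.3 and 16.2 CPM in AA100 against 5.36 and 3.93 CPM in AA3. No AA100 library overlapped an AA3 library of its set, though each dose had few libraries and the pairs were technical replicates. The share of all genes without overlap was not counted.

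The edgeR log2 change of Flt1 was 1.59 ± 0.05 in standard RNA-seq (adjusted p = 2.0e-246), 1.21 ± 0.35 in DP-seq (adjusted p = 0.0519), 1.62 ± 0.45 in SMART-seq (adjusted p = 0.153) and 2.45 ± 0.71 in the dose set (adjusted p = 1.00); of all genes, 3.43% were called in DP-seq (2.27% higher, 1.16% lower) and 1.35% in SMART-seq (0.786% higher, 0.568% lower). There edgeR called 0 of 5 and 0 of 3 members, with 2 in each at an unadjusted p under 0.05, against 1810 of 11631 genes in DP-seq and 2013 of 11453 in SMART-seq. Flt1 passed edgeR's test within 1 method in standard RNA-seq alone. DESeq2's Wald test also called it in DP-seq (adjusted p = 0.0349), and the joint fit in standard RNA-seq (0.0402) and SMART-seq (0.0216). Of all genes, these fits called 3.73%, 1.91% and 4.07%. The summed level of 6 definitive endoderm genes was likewise higher in AA100 than in AA3 in every set, at 910 against 119 CPM in the dose set and 1178 against 611 and 612 CPM in standard RNA-seq. In the dose set most of the sum was Cer1, which encodes a secreted Nodal inhibitor, at 719 CPM in AA100 and 78.8 CPM in AA3. In SMART-seq the log2 changes of Foxa2, Sox17 and Cxcr4 were −0.57 ± 0.29, 0.00 ± 0.41 and 0.11 ± 0.36. The part of endoderm in the Flt1 result was not tested.

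The share of Kdr in the summed Kdr and Flt1 counts of a library does not depend on how libraries are scaled, though it is no ratio of transcript levels. In the dose set it was 20.0% in SB (exact binomial 95% interval 10.0 to 33.7), 46.5% and 67.8% in SFM, 42.4% in AA3, 35.7% and 36.2% in AA15, and 53.3% in AA100 (51.5 to 55.2). In the method set it was 2.30% in AA100 against 17.5% and 18.3% in AA3 (standard RNA-seq), 3.45% and 3.53% against 27.4% (DP-seq), and 0% and 0.215% against 18.7% and 21.7% (SMART-seq). The interval of the higher DP-seq AA100 share, 2.64 to 4.61, lay below that of DP-seq AA3, 23.9 to 31.1.

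**Figure D3:**
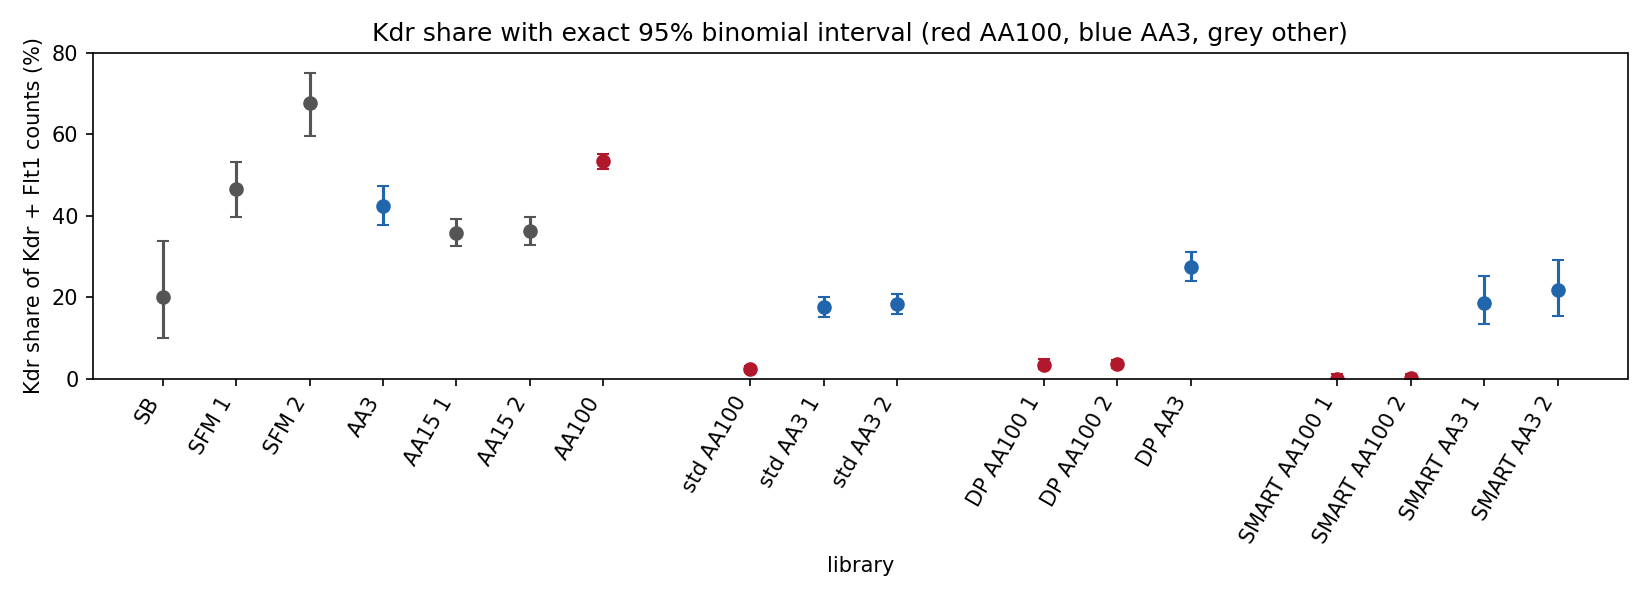
Share of Kdr in the Kdr and Flt1 counts of a library, in percent (vertical axis from 0), for 17 libraries along the horizontal axis, first those of the dose set and then those of each method, with exact 95% binomial intervals that cover counting error only. AA100 (red) lies at 53.3% in the dose set and at or under 3.53% in the method set, where AA3 (blue) lies between 17.5% and 27.4%.

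Pdgfra was close to the floor in the method set too, at 1 count in AA100 against 7 and 4 in AA3 in standard RNA-seq. Hand1 had 17 counts in AA100 against 6 and 5 in AA3 in standard RNA-seq (1.65 ± 0.61, edgeR, adjusted p = 0.0128). The joint fit did not call it (1.64 ± 2.25, adjusted p = 1.00), and DESeq2 gave it no adjusted p. In DP-seq from 50 pg it had 2 and 42 counts in AA100 against 0 in AA3, and in SMART-seq 0 and 1 in AA100 against 0 and 15 in AA3, so the technical replicates from 50 pg spread over most of each method's range. Hand2 had 7 counts in AA100 against 9 and 14 in AA3 in standard RNA-seq (−0.66 ± 0.66, edgeR, adjusted p = 0.395), against 16 and 1 counts in the dose set. In DP-seq from 50 pg it had 0 and 26 counts in AA100 against 3 in AA3.

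Etv2 was measurable in 2 of the 3 methods. In standard RNA-seq it had 2.63 CPM in AA100 against 1.20 and 1.63 CPM in AA3 (27 against 13 and 17 counts). In SMART-seq it had 6.25 and 8.53 CPM in AA100 against 8.65 and 10.0 CPM in AA3 (166 and 245 against 239 and 303 counts). In these TMM-scaled values AA100 was above AA3 in standard RNA-seq and below it in SMART-seq, without overlap. As CPM of the library total the SMART-seq libraries overlapped, at 6.41 and 8.64 in AA100 against 8.40 and 9.90 in AA3. The edgeR log2 changes were 0.89 ± 0.41 in standard RNA-seq (adjusted p = 0.0453) and −0.34 ± 0.45 in SMART-seq (adjusted p = 0.808), and their difference, SMART-seq minus standard RNA-seq, did not pass (−1.29 ± 1.15, adjusted p = 0.838 in the joint fit). DESeq2's Wald test did not call the rise in standard RNA-seq (adjusted p = 0.399). In DP-seq from 50 pg Etv2 had 1 and 0 counts in AA100 and 0 in AA3.

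Tal1 had 3 counts in AA100 against 2 and 1 in AA3 in standard RNA-seq, and 25 and 11 in AA100 against 4 in AA3 in DP-seq from 50 pg (1.98 ± 2.87, edgeR, adjusted p = 0.820). Gata2 had 4 counts in AA100 against 8 and 3 in AA3 in standard RNA-seq, and Lmo2 1 against 3 and 2. Between methods, edgeR called 0 of the 6 members tested for the difference of DP-seq from standard RNA-seq and 0 of 6 for that of SMART-seq, against 0.739% and 0.853% of 14072 genes; at an unadjusted p under 0.05 there were 0 and 1 of these members, and DESeq2's Wald test called 0 in each. The 1 member was Kdr, with a difference of −4.12 ± 1.33 for SMART-seq minus standard RNA-seq (adjusted p = 0.319).

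The 2 members listed with several RefSeq transcripts were near 0 in every library. Over all 33 libraries the 2 transcripts of Pdgfra totalled 20 and 2 counts, and of the 4 transcripts of Lmo2 one had 5 counts, one had 1 and the other two had 0. The 7 members with 1 transcript totalled between 25 counts for Gata2 and 14854 for Flt1. The deposited values are unique reads, and what was done with reads that match several transcripts is not given in the sources used here. Of all genes with 2 or more transcripts, 34.3% of 3080 had 0 counts in the dose set, against 23.0% of 18764 genes with 1 transcript. Over all 33 libraries the order was the other way, with 12.8% against 16.1% at 0, and whether the number of transcripts bears on the values of Pdgfra and Lmo2 was not tested. Among the 9 genes, all but Etv2 and Hand2 overlap another annotated gene, and whether the counting used strand is not given in the sources used here.

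The AA3 levels of Kdr depended on the amount of mRNA. As CPM of the library total, without TMM scaling, Kdr stood at 0 and 2.23 from 1 pg, 0.355 and 15.8 from 10 pg, 11.8 and 5.95 from 50 pg, 10.4 and 5.29 from 100 pg, 22 and 16.7 from 1 ng, and 26.7 and 26.5 from 10 ng. The technical replicates lay closest together at 10 ng, and at 10 pg they held 1 and 50 counts. Flt1 stood at 4.68 and 6.68 from 1 pg, 26.6 and 7.26 from 10 pg, 24.6 and 29.8 from 50 pg, 33.9 and 22.6 from 100 pg, 55.7 and 50.3 from 1 ng, and 48.2 and 42.8 from 10 ng. From 1 pg the libraries totalled 427556 and 448933 counts. They held 0 and 1 counts of Kdr and 2 and 3 of Flt1, at or under the floor of 3 counts. Both genes were lower from 100 pg or less than from 1 ng or more, in every library. The primer sets gave Kdr 20.7, 4.78 and 25.7 and Flt1 118, 20.7 and 142 CPM (primer sets 1, 2 and 3, about 500 pg, 1 library each).

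**Figure D4:**
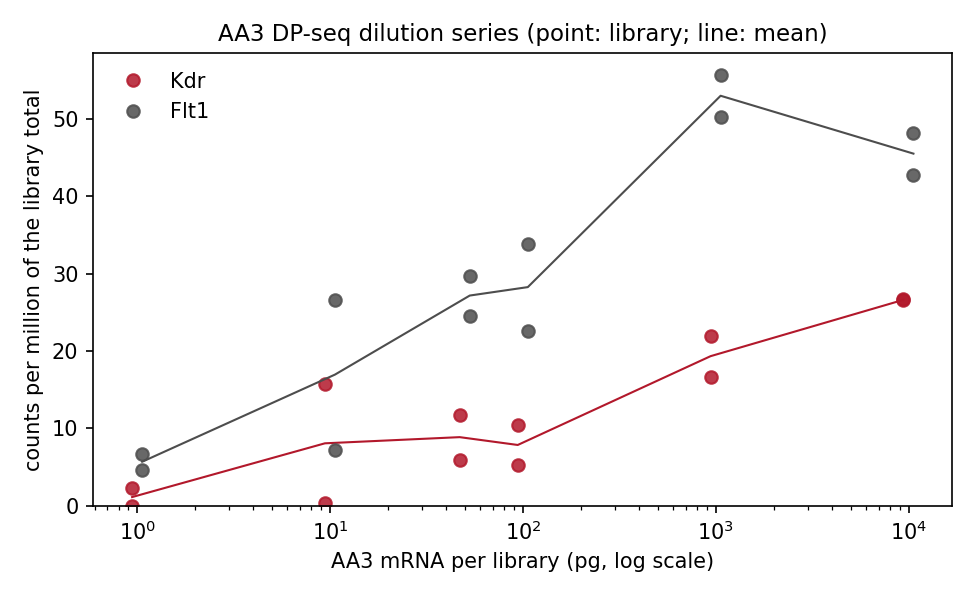
CPM of the library total (vertical axis from 0) of Kdr (red) and Flt1 (grey) in the 12 AA3 DP-seq dilution libraries, against the mRNA amount in pg on a log axis, with a point for each library, a line through the means and the 2 genes drawn slightly apart. Kdr lies at 26.7 and 26.5 from 10 ng and at 0.355 and 15.8 from 10 pg.

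Hand1 kept 7 and 16 counts from 10 ng, 8 and 9 from 1 ng and 4 and 7 from 100 pg, and had 0 in both libraries from 50 pg and from 10 pg. Etv2 reached at most 7 counts, Pdgfra 4 and Tal1 2 in any dilution library, and Lmo2 had 0 in all 12. From 50 pg, the 2 dilution libraries held 5 and 0 counts of Hand2, 0 and 4 of Etv2 and 0 of Tal1, so technical replicates of 1 input differed between 0 and several reads.

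Other genes of the pathway were described by role, and their calls in standard RNA-seq stand against 62.3% of all genes called there, 31.1% in each direction. Of 9 VEGF and PDGF ligand genes, 7 were tested in standard RNA-seq, and 2 rose and 1 fell in AA100, a share below that of all genes. Vegfb, whose product binds Flt1, had 132 CPM in AA100 and 56.6 CPM on average in AA3 (log2 change 1.23 ± 0.06, edgeR, adjusted p = 1.6e-96). Vegfd, whose product is a ligand of Flt4, gave 1.27 ± 0.27, and Pdgfa, whose product is a ligand of Pdgfra, −1.38 ± 0.15 (adjusted p = 6.3e-06 and 4.9e-18 in edgeR's test). Vegfb was in the same range in the dose set, at 107 CPM in AA100 and 118 CPM in AA3. In the dose trend none of 8 ligands tested was called, and the largest slopes were those of Pdgfd (−1.78 ± 0.52, adjusted p = 0.259) and Vegfc (−1.13 ± 0.32, adjusted p = 0.241).

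Among 9 receptor genes, Nrp1, a co-receptor that presents VEGF-A to Kdr, had 175 CPM in AA100 and 28.0 CPM in AA3 in the dose set, but 19.4 CPM in AA100 against 60.8 CPM on average in AA3 in standard RNA-seq. Its log2 change was −1.65 ± 0.10 in standard RNA-seq and −1.20 ± 0.27 in DP-seq (edgeR, adjusted p = 2.7e-64 and 0.0121), and 2.64 ± 0.82 in the dose set (adjusted p = 1.00). In SMART-seq it was −1.64 ± 0.35 (adjusted p = 0.103). For AA100 over AA3, Nrp1 thus had the sign of Kdr in all 4 sets. Across the other dose-set groups it did not follow Kdr. It had 51.7 CPM in SB, 40.3 and 79.6 CPM in SFM and 51.9 CPM on average in AA15. Flt4, the receptor for VEGF-C and VEGF-D, rose in standard RNA-seq (1.28 ± 0.13), as did Acvrl1, a BMP receptor of endothelium (1.56 ± 0.50), with adjusted p = 1.0e-20 and 0.0040 in edgeR's test. In the dose trend, none of 3 receptors tested passed.

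Of 17 blood and endothelial transcription factor genes, 7 were tested in standard RNA-seq, where 3 rose (Klf1, Nfe2 and Myb) and 2 fell (Mecom and Tcf12), which is near the share of all genes. Klf1, an erythroid factor, gave 1.79 ± 0.54, and Tcf12, which encodes a partner of Tal1, −0.19 ± 0.04 (edgeR, adjusted p = 0.0019 and 5.7e-06). Mecom gave −0.95 ± 0.22 and Myb, a factor of blood stem cells, 0.44 ± 0.12 (adjusted p = 9.9e-05 and 0.00085). None of 9 was called in the dose trend, where Mecom had the largest slope (−1.31 ± 0.30, adjusted p = 0.153). The median slope of these 9 was −0.13, against 0.00 over all genes. Of the endothelial products, Vwf fell in standard RNA-seq (−2.29 ± 0.24, edgeR, adjusted p = 2.5e-19), and of the primitive blood products Itga2b, which marks the earliest blood precursors, rose (1.02 ± 0.26, adjusted p = 0.00026); 3 and 1 genes of these lists were tested.

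Of 18 genes of flank, extraembryonic and heart mesoderm, 13 were tested in standard RNA-seq; 4 rose (Gata6, Bmp2, Msx2 and Gata4) and 4 fell (Mesp1, Wnt5a, Isl1 and Ahnak), again near the share of all genes. Nfe2 above and Msx2, Gata4 and Isl1 here lie outside the rule for named genes and were named after their values were seen. Mesp1, which encodes a factor of the earliest cardiovascular mesoderm, had 2.73 CPM in AA100 against 14.3 CPM on average in AA3 (−2.39 ± 0.22, edgeR, adjusted p = 4.9e-25), and it was also called lower in DP-seq from 50 pg (adjusted p = 0.0266), where it was at 0 in AA100 and 7.25 CPM in AA3. In the dose set it stood at 7.34 CPM in AA100 and 0.689 CPM in AA3. Wnt5a, a ligand of non-canonical Wnt signalling, had 36.2 CPM in AA100 and 6.64 CPM in AA3 in the dose set, and 3.12 against 16.1 CPM in standard RNA-seq (−2.36 ± 0.21). Gata6 and Bmp2 kept their direction: Gata6 had 13.2 CPM in AA100 and 3.57 CPM in AA3 in the dose set and 130 against 45.7 CPM in standard RNA-seq, and Bmp2 4.68 against 0.876 and 48.5 against 24.2 CPM. In the dose trend 0 of 13 genes of this list were called, with 10 slopes above 0 and a median of 0.33; the largest were those of Bmp2 (1.5 ± 0.25, edgeR, adjusted p = 0.0737) and Mesp1 (1.25 ± 0.26, adjusted p = 0.115).

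The genes most like each member were taken by Pearson correlation of log2(CPM + 1) over all 17 dose-set and method-set libraries, centred within each set, among 9819 genes; the libraries share RNA samples and technical replicates, so this is a description. For Kdr they were Rplp0 (0.96), Aplnr (0.94) and Samd3 (0.93), and for Flt1 Tagln2, Tmem200a and Amot (all 0.96). For Hand1 they were Sox17 (0.91), Bcl6 (0.89) and Fgf10 (0.85), for Hand2 Gm5431 (0.87), Cfap299 (0.85) and Fgf10 (0.83), and for Tal1 Gstt1 (0.84), Dtx3l (0.83) and Pelo (0.82). Hand1, Hand2 and Tal1 passed the count filter in only some of the sets.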

How the data were processed

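The authors deposited, for each of the 33 libraries, counts of unique reads for 26566 RefSeq transcripts, per the file headers; in 8 of the deposited files 15 values are not whole and were treated as estimated counts and rounded. Which genome build, RefSeq release, aligner and counting rule were used is not given in the sources used here. Transcripts were named from a RefSeq table (25857) or GENCODE (150), with 559 left unnamed, and counts were summed to 21844 genes. Totals ran between 427556 and 30609013 counts a library. After filterByExpr (a minimum count of 10 and total of 15) and TMM scaling, counts were tested with edgeR 4.0.16 (quasi-likelihood, R 4.3.3) with Benjamini-Hochberg adjustment over all genes tested and a threshold of 0.05. The dose set was fitted in 1 model and each method in its own; all method-set libraries were fitted jointly for the differences between methods. DESeq2 1.42.0, other size factors, no filter, leaving out each replicate, the replicate block, other dose codings and the joint fit were alternatives. AA100 against AA3 in the dose set, the difference between the library sets, leaving out both SFM libraries, leaving out replicates in the joint fit and the crossed block were added after seeing the data. Ratios of pooled counts and shares carry exact 95% intervals, which cover counting error only, since reads from amplified cDNA are not independent molecules; 3 counts were the floor. The fits were tested on simulated data.

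The members and gene lists were chosen with earlier results of these data known. The text names all 9 members, up to 4 genes of each list with the smallest adjusted p past the threshold or, where none passed, the 2 with the largest change, and the 3 genes most like each member.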

Additional observations from a re-analysis of the deposited data

Results flagged for a closer look

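The direction of AA100 against AA3 differed between library sets for 3 members, counting only comparisons with at least 10 counts and no overlap of libraries in TMM-scaled values. By CPM of the library total it differed for 2, Kdr and Hand2, since the Etv2 libraries of SMART-seq then overlap. The share of all genes that differ by this rule was not counted, so the number of members cannot be set against it. Nrp1, Mesp1 and Wnt5a, which are not members, also changed direction between the dose set and standard RNA-seq. For Kdr the pooled log2 ratio of AA100 to AA3 in the dose set exceeded that in standard RNA-seq by 4.71, that in DP-seq from 50 pg by 5.25 and that in SMART-seq by 9.09. Of these differences only that between the DP-seq sets was tested, and it did not pass edgeR's test (adjusted p = 1.00) and passed DESeq2's Wald test (adjusted p = 0.00983). For Hand2 the dose set exceeded standard RNA-seq by 4.68, a difference that rests on 1 AA3 count in the dose set and was not tested. For Etv2 standard RNA-seq exceeded SMART-seq by 1.23, and the test of that difference did not pass (edgeR, adjusted p = 0.838).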

How the results depend on the processing

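Among values of single members, 422 kept their direction and side of the threshold, 45 passed it only under an alternative, 17 no longer passed it and 13 changed sign; of the counts, 118 stayed within 1.5 times and 80 did not. The cause of these shifts was not tested.

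With DESeq2's Wald test, 17 genes were called for SB, 14 for AA3, 168 for AA15 and 106 for AA100 against SFM (0 with edgeR in each), 497 for the dose trend (48), 4431 for standard RNA-seq (7849), 1135 for SMART-seq (155), 508 and 477 for the DP-seq and SMART-seq method differences (104 and 120) and 6 for the difference between DP-seq sets (0). Members called were then 1 for AA15, 2 for AA100, 3 for the trend, 2 for standard RNA-seq, 1 for DP-seq and 1 for the difference between DP-seq sets. The shares of all genes called in these tests were, in the same order, 1.38%, 0.87%, 4.11%, 35.2%, 3.73% and 0.046%. Leaving out 1 replicate at a time gave 0 to 7055 genes for SB (0 to 4 members), 0 to 6921 for AA3 (0 to 1), 0 to 7815 for AA15 (0 to 3), 0 to 7156 for AA100 (0 to 5) and 0 to 693 for the trend (0 to 4); where SFM replicate 2 or 1 was left out these were 498 and 7055, 637 and 6921, 1570 and 7815, and 1560 and 7156. It gave 47 to 53 genes and 0 members for standard RNA-seq in the joint fit, 11 to 18 genes for SMART-seq, 5 to 291 and 8 to 272 for the method differences of DP-seq and SMART-seq, and 560 to 605 genes with 3 members for AA100 against AA3 in the dose set without an SFM library. For standard RNA-seq and DP-seq this leaves 1 library a group, so each lone library is taken to vary as the replicated groups do. With no filter, 250 genes were called in SMART-seq (155 with the filter). With SB as the lowest step the trend called 196 genes and 3 members, and on log2 of dose plus 1 it called 18 genes. The joint fit called 269 genes and 1 member in standard RNA-seq and 573 genes and 2 members in SMART-seq.

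Replicate numbers did not pair the samples: same-numbered deviations correlated at −0.26 for AA15 and SFM and −0.01 for SMART-seq. The replicate block gave 10 genes for AA15 and 54 for SMART-seq, with 0 members, and the crossed pairing gave 0 genes.

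Signs changed when 1 library was left out, with these lowest and highest values. Against SFM, Tal1 lay between −1.62 (without SFM replicate 1) and 0.21 (without replicate 2) for SB, between −0.26 and 1.57 without the same replicates for AA3, and between −0.93 (without AA15 replicate 1) and 1.00 (without SFM replicate 2) for AA15, where it was 0.30 without AA15 replicate 2. Its trend lay between −0.071 and 0.42, and Hand2 in AA3 between −0.57 and 0.073, without SFM replicate 1 and 2. Without DP-seq AA100 replicate 2, Hand2 was −5.26 in DP-seq, against 2.72 without replicate 1. In the DP-seq method difference Etv2 was −0.88 and 2.78, and Hand2 3.39 and −4.60, without AA100 replicate 1 and 2. In that of SMART-seq, Flt1 was 0.15 and 0.19 without replicate 1 of AA100 and of AA3 and −0.26 without AA100 replicate 2. Tal1 was 2.92 and −0.98 without AA100 replicate 1 and 2, and Hand1 was −7.38 without AA100 replicate 2 and 0.54 without AA3 replicate 2. Hand2, Etv2, Tal1, Gata2, Lmo2 and Pdgfra held few counts in most libraries, which limits what can be said of them. The part of depth or method in these low counts was not tested.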
